A study of Mus musculus with 6 samples.

Results

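Interleukins 2, 4, 7, 9, 15 and 21 are read by receptors that share one subunit, the common gamma chain, encoded by Il2rg. The gamma chain carries the tyrosine kinase JAK3, and its partner subunits carry JAK1. Ligand binding lets the kinases phosphorylate the receptor tails, and STAT5 proteins docked there enter the nucleus, bind the element called GAS and switch on genes that include Cish, whose product dampens the same receptors. In T cells the pathway is known for survival and expansion, and in B cells for the responses to interleukins 4 and 21. Described here are 10 genes of this system in mouse spleen: the receptor chains Il2ra, Il2rb, Il2rg, Il7r, Il4ra and Il21r, the kinase gene Jak3, the transcription factor genes Stat5a and Stat5b, and the feedback gene Cish. They were chosen by name, matched by Entrez gene ID among the 40808 IDs of the deposited table, and all 10 were found.

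The libraries were made from leukaemic spleen of mice that had received a bone marrow transplant, and the study's title concerns the control of NOTCH by UVRAG and the ubiquitin ligase ITCH. There were 2 groups of 3 libraries: no Dox (replicates 4, 5 and 6, treatment given as no) and Dox (replicates 10, 11 and 12). All groups share the tissue and the transplant. The labels do not spell Dox out, and the dose, its duration, the gene it controls, the kind of leukaemia, and the genotype, strain, age and sex of donors and recipients are not given in the sources used here. Replicates are separate libraries by label, but nothing says that each came from its own mouse, so the p-values measure the spread between these libraries, which may be technical.

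Total counts ran from 5541486 to 8725767, and 3 counts, taken as the floor, were worth 0.309 to 0.608 normalized CPM (counts scaled to a common library size, with TMM factors), which covers counting error only. The groups differed in several ways besides the genes described here. T cell markers fell in 17 of 18 genes tested (edgeR quasi-likelihood test, adjusted p under 0.05), and their summed level was 4362 to 4674 CPM without Dox and 304.7 to 337.4 CPM with Dox. B cell markers rose in 12 of 12 genes, from a summed 39.69 to 46.79 CPM to 2167 to 2411 CPM, and myeloid markers rose in 8 and fell in 2 of 12, from 286.7 to 295.5 CPM to 2111 to 2193 CPM. No T, B or myeloid marker was at 0 counts in all libraries of a group except Ly6g, which marks neutrophils and had 0 counts in each library without Dox. Of all genes tested, 22.1% fell and 23.6% rose. The Y-linked genes had 545 to 801 counts without Dox and 0 with Dox. The X-linked RNA Xist had 193 to 324 counts without Dox and 3347 to 5669 with Dox, so the libraries without Dox held both. Haemoglobin genes took 8.61% to 9.04% of counts without Dox and 14.1% to 15.9% with Dox. The biological coefficient of variation within a group was 0.19 without and 0.515 with Dox. In bulk RNA, fewer cells of a type and less RNA per cell cannot be told apart. Neither can Dox and the difference in sex-linked genes between these groups. The part of donor and recipient cells in the sex-linked counts was not tested.

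The stretches of Cish and Il7r are shown for GAS, the element that STAT5 binds. Those of Il2ra and Il2rg are shown because these 2 genes kept their call in each alternative. GGAAGT was searched as a form of the element bound by ETS factors, a general element of lymphoid promoters. The RBPJ core was searched because NOTCH is in the study's title. All stretches are from RefSeq (GRCm38.p6), 5′ to 3′ on the gene's strand, with matched elements in capitals. For Il2ra the 250 bases before the start (chr2:11642542-11642791, plus strand) hold GGAAGT once, on the opposite strand, at -35 to -30. For Il2rg the 250 bases before the start (chrX:101268256-101268505, minus strand) hold TGGGAA, the core of the element bound by RBPJ, the DNA-binding partner of NOTCH, at -241 to -236. For Cish 30 bases at the RefSeq start (chr9:107296654-107296683, plus strand) hold 2 GAS elements, TTCNNNGAA, at 1 to 9 and 12 to 20. GENCODE vM21 starts Cish further out, at 107296026, so these positions depend on the annotation. For Il7r 30 bases upstream (chr15:9530000-9530029, minus strand) hold 1 GAS element at -142 to -134, counted from the start of its promoter window at 9529876. From the gene's RefSeq 5′ end at 9529941 the element lies at -77 to -69, and GENCODE vM21 starts the gene further out, at 9530176, so that the element then lies inside it, in an intron.
Il2ra: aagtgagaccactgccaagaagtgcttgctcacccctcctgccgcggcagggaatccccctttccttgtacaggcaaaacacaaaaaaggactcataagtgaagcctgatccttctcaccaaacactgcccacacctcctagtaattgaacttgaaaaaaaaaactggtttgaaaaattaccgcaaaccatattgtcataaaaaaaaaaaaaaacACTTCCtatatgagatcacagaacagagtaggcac
Il2rg: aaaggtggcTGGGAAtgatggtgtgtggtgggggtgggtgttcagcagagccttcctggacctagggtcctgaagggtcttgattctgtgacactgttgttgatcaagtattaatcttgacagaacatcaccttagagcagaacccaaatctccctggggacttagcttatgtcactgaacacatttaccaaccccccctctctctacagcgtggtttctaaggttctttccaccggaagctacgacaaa
Cish: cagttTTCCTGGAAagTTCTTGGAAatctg
Il7r: agttcaggagcTTCAGGGAAtaccaagatg

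RefSeq promoter windows, 300 bases from 250 before to 50 after a start, were matched for 9 of the 10 genes, all except Il2rb, and 11 windows were searched on both strands with no motif overlapping another. GAS was found in 2 of the 11 windows (Il7r and Cish) and in 8.3% of all 32851 windows. The ETS form GGAAGT was found in 4 of the 11 windows, 1 each of Il2ra, Il7r, Stat5a and Stat5b, against 23.8% of all windows. Counted from the gene's RefSeq 5′ end, the matches of Il7r (17 to 22), Stat5a (64 to 69) and Stat5b (36351 to 36356) lie inside the gene. Other ETS forms, such as the ggaagc near the end of the Il2rg stretch, were not searched. The RBPJ core was found in 1 of the 11 windows (Il2rg) against 25.6%. A match describes letters and is not a binding site.

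Among the receptors, the chain specific to the high-affinity interleukin 2 receptor fell furthest, the gamma chain and the interleukin 7 receptor chain fell about as much as each other, and the interleukin 4 receptor chain rose. Of the 10 genes, 5 passed an adjusted p of 0.05 (edgeR quasi-likelihood test, Benjamini-Hochberg over all 14110 genes tested), where 45.6% of all genes tested passed. Il2ra, Il2rg, Il7r and Stat5a fell with Dox (22.1% of all genes fell) and Il4ra rose (23.6% of all genes rose). In 7 of the 10 the libraries of one group all lay above those of the other, as in 59.6% of all genes tested. All 10 passed the filter on low counts. The median log2 fold change of the 10 was -0.82, and that of all genes tested was 0.07. These shares are near the background and are no result about the 10 genes as a set, so the values of each follow. The count of 5 was not stable: it was 2 without no Dox replicate 4 or without no Dox replicate 6, and 3 without Dox replicate 11.

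**Figure D1:**
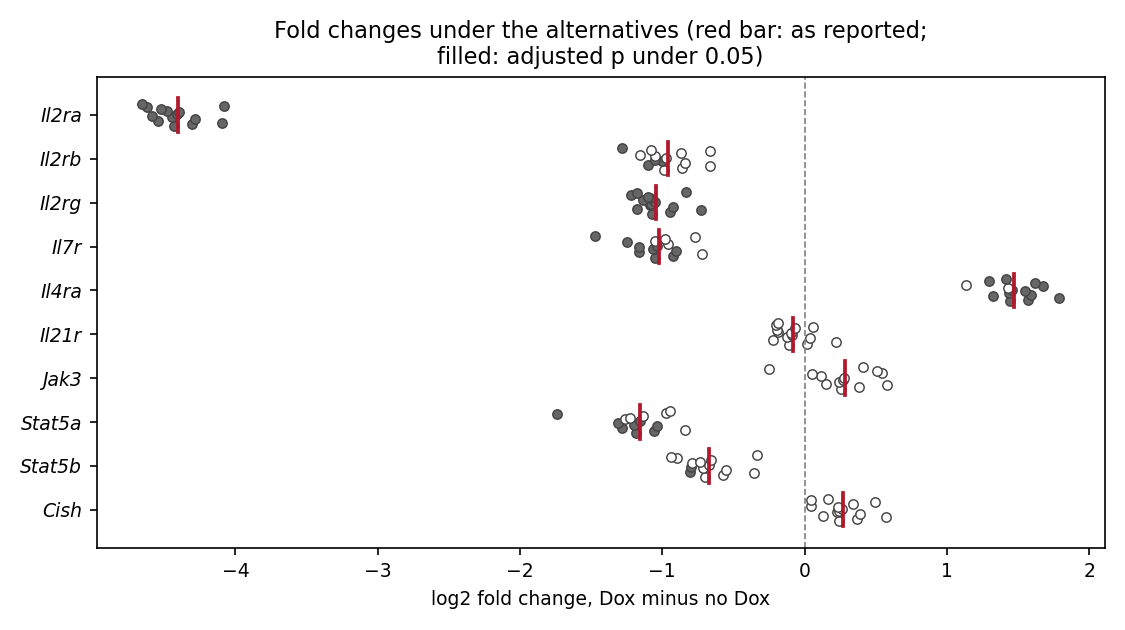
Points give the log2 fold change (Dox minus no Dox) of each gene in up to 14 alternative fits, filled where the adjusted p was under 0.05, and the red bar gives the value as reported. All points of Il2ra and Il2rg are filled and below 0, those of Il7r, Il4ra and Stat5a are filled in some fits only, and those of Il21r and Jak3 lie on both sides of 0.

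**Figure D2:**
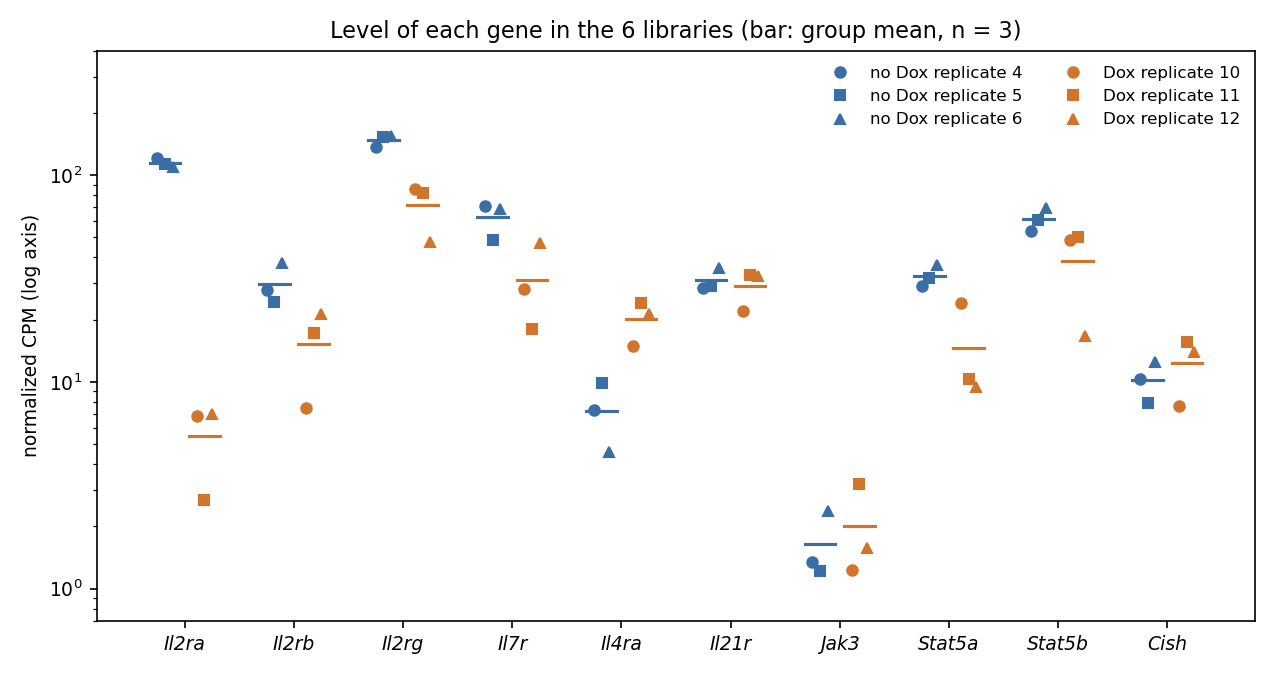
Normalized CPM (log axis) of the 10 genes in each of the 6 libraries, with points shaped by replicate, blue without Dox and orange with Dox, and a bar at each group mean (n = 3). Il2ra lies at 109.7 to 121.3 CPM without Dox and 2.676 to 6.985 CPM with Dox, while the groups overlap for Il21r, Jak3 and Cish.

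Il2ra (Entrez gene 16184, chr2:11642792-11693194) encodes the alpha chain, CD25, which raises the affinity of the receptor for interleukin 2 and is found on early thymocytes, activated T cells and regulatory T cells. Its level was 121.3, 113.1 and 109.7 CPM without Dox and 6.805, 2.676 and 6.985 CPM with Dox. Every library without Dox was far above every library with Dox, and the spread without Dox was small (coefficient of variation 5.22%, against 44.4% with Dox). By edgeR, Il2ra fell by 4.40 ± 0.34 (SE) on the log2 scale, which is 21.1-fold (adjusted p = 8.17e-06), and only 1.3% of tested genes had a lower fold change. The call held in each of the 14 alternatives.

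The fall of Il2ra went with that of the T cell markers. Of 18 T cell markers, 4 had a lower fold change than Il2ra, and their median was -3.26 with a range from -5.72 to -0.74. Whether Il2ra was high or low against T cell genes depended on the gene taken. Counts of Il2ra per 100 counts of a marker were lower in each Dox library for 10 of the 18 markers, higher in each for 3 (Trbc1, Thy1 and Tcf7), and overlapped for 5. Against Cd3e, a chain of the T cell receptor complex, there were 54.1, 60.4 and 62.6 in the libraries without Dox, above the 30.7, 28.6 and 28.2 in those with Dox. Against Thy1, a surface protein of T cells, there were 24.7, 24.8 and 24.8 in the libraries without Dox, below the 69.4, 65 and 54.6 in those with Dox. Markers of regulatory T cells, which carry Il2ra in normal spleen, rose in 2 and fell in 1 of 6 genes, so that 50% passed against 45.6% of all genes. Their summed level was 362.8 to 382.8 CPM without Dox and 51.85 to 67 CPM with Dox. The gene that fell was Ikzf2, which made up most of that sum, from 351.9 to 33.79 CPM, and Tnfrsf4 rose from 1.052 to 8.011 CPM. Foxp3, which defines the cells, had 2, 0 and 0 counts without Dox and 17, 23 and 17 with Dox, at least 4.42-fold higher against a floor of 3 counts in each library (adjusted p = 0.0235 by edgeR); it is named outside the naming rule. Ccdc22 and Gm36995, on the other strand, each overlap 96 of the last 500 exonic bases of Foxp3, so without a known strand setting these few counts are uncertain. The 2 rises rest on few counts: no regulatory T cell marker was called higher without no Dox replicate 5 or without Dox replicate 10, and 1 without no Dox replicate 4, no Dox replicate 6 or Dox replicate 11. The part of cell numbers in the level of Il2ra was not tested.

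Il2rb (Entrez gene 16185, chr15:78479256-78511621) encodes the beta chain, which the interleukin 2 and interleukin 15 receptors share. It was 27.91, 24.32 and 37.47 CPM without Dox and 7.485, 17.19 and 21.35 CPM with Dox. The groups did not overlap, but the highest Dox library came close to the lowest library without Dox. By edgeR the log2 fold change of Il2rb was -0.96 ± 0.38 (SE) and its adjusted p 0.0654, so the difference did not pass the threshold. It passed without Dox replicate 12 (adjusted p = 0.0193) and with DESeq2 (0.0469), and over its alternatives the adjusted p ran from 0.00627 to 0.181. Among 8 natural killer cell markers, a cell type that carries much Il2rb, 5 had too few counts to test, and Eomes and Tbx21 rose, from 0.6098 to 9.342 CPM and from 0.7087 to 5.874 CPM (66.7% of those tested called, against 45.6% of all genes). An antisense gene, Gm33460, overlaps 44 of the last 500 exonic bases of Eomes. The third gene tested, Klrb1c, which encodes the surface marker NK1.1, had 20, 20 and 14 counts without Dox and 27, 16 and 0 with Dox and did not pass (edgeR, adjusted p = 0.599). The count that rose was 1 without no Dox replicate 4 or without no Dox replicate 5. In normal spleen Eomes and Tbx21 are also expressed by T cells.

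The balance of the alpha and beta chains differed between the groups. Il2ra had 435, 465 and 293 counts per 100 Il2rb counts without Dox, and 90.9, 15.6 and 32.7 with Dox. The alpha chain had more counts in each library without Dox, and the beta chain had more in Dox replicates 11 and 12. In Dox replicate 10 the chains had 50 and 55 counts, and Il2ra took 47.6% of them (exact 95% binomial interval 37.8% to 57.6%, counting error only), so their order there was not detectable at this depth. One fragment is expected per transcript in these 3′ libraries whatever its length, so counts of different genes were compared without division by length.

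Il2rg (Entrez gene 16186, chrX:101264385-101268255) encodes the gamma chain itself and had the highest mean level of the 10 genes in both groups. It was 137.4, 153 and 154.9 CPM without Dox and 86.15, 82.13 and 47.44 CPM with Dox. The groups did not overlap, and Dox replicate 12 was the lowest. By edgeR, Il2rg fell by 1.05 ± 0.23 (SE) on the log2 scale (adjusted p = 0.00456), and the call held in each of the 14 alternatives, with adjusted p up to 0.0316. Per 100 Cd3e counts, Il2rg had 61.3, 81.7 and 88.4 counts without Dox and 388, 877 and 191 with Dox. The same measure was higher in each Dox library for 16 of the 18 T cell markers, and it overlapped for Cd4 and Cd5. The gene is on the X chromosome, and sex-linked genes followed the groups. A readthrough gene, Gm20489, shares 728 exonic bases with Il2rg on the same strand, none in the last 500.

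Il7r (Entrez gene 16197, chr15:9506159-9529941) encodes the alpha chain of the interleukin 7 receptor, which developing lymphocytes and resting T cells need to survive. It was 71.33, 48.64 and 68.83 CPM without Dox and 28.03, 18.11 and 47.18 CPM with Dox. The groups did not overlap, but Dox replicate 12 was just under no Dox replicate 5. By edgeR, Il7r fell by 1.02 ± 0.33 (SE) on the log2 scale (adjusted p = 0.0298). This call depended on single libraries: it was lost without no Dox replicate 4 (adjusted p = 0.0935), without no Dox replicate 6 (0.0785), without Dox replicate 10 (0.0815) and without Dox replicate 11 (0.0602). The adjusted p ran from 8.58e-05 to 0.0947 over the alternatives.

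Il4ra (Entrez gene 16190, chr7:125552271-125579474) encodes the interleukin 4 receptor alpha chain, which pairs with the gamma chain or with Il13ra1 and signals mainly through STAT6. It was the gene of the 10 that rose. Its level was 7.312, 9.93 and 4.577 CPM without Dox, from 27 to 49 counts, and 14.97, 24.08 and 21.35 CPM with Dox. Each Dox library was above each library without Dox. By edgeR, Il4ra rose by 1.47 ± 0.38 (SE) on the log2 scale, which is 2.78-fold (adjusted p = 0.0106). The call was lost without no Dox replicate 4 (adjusted p = 0.0531) and without no Dox replicate 6 (0.0554), with a range from 0.00265 to 0.0554 over the alternatives. B cells and myeloid cells carry Il4ra in normal spleen. All 12 B cell markers tested rose, and of the 12 myeloid markers 8 rose, 2 fell and 2 did not pass; the part of these cells in the level of Il4ra was not tested. An antisense gene, Gm44876, overlaps 571 exonic bases of Il4ra, none in the last 500, and no strand setting of the counting is given.

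Il21r (Entrez gene 60504, chr7:125603252-125634397) lies next to Il4ra and encodes the receptor chain for interleukin 21, a cytokine that acts on B cells, T cells and natural killer cells. It was 28.35, 28.98 and 35.6 CPM without Dox and 22.05, 32.93 and 32.68 CPM with Dox. The groups overlapped, and the log2 fold change was -0.08 (95% interval -0.65 to 0.48, adjusted p = 0.809 by edgeR). Its sign turned (0.22) under scaling by library size alone, a setting that raised the median of all tested genes by 0.31, and it turned without Dox replicate 10 (0.057).

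**Figure D3:**
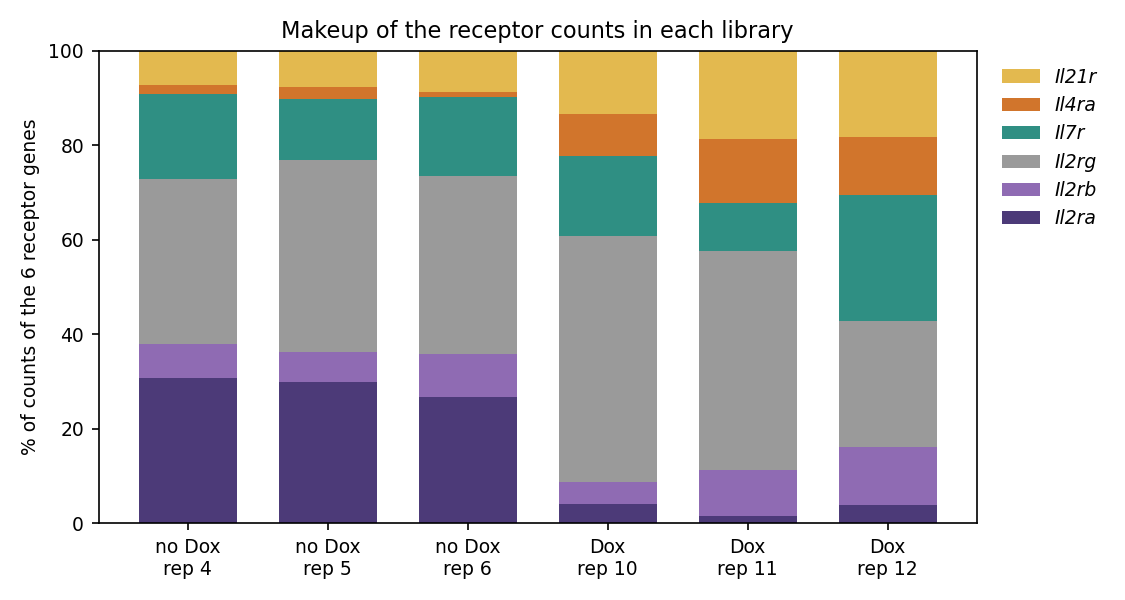
Stacked bars give the percent of the summed counts of the 6 receptor genes that each gene took in each library, 3 without and 3 with Dox. The Il2ra share was 26.7% to 30.8% without Dox and 1.51% to 4.11% with Dox, and the Il4ra and Il21r shares were larger in each Dox library.

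The makeup of the receptor counts, which no scaling touches, shows how the chains changed against each other. The 6 receptors summed to 393.7, 378 and 411.1 CPM without Dox and to 165.5, 177.1 and 177 CPM with Dox. Without Dox, Il2ra took 29.1% ± 2.18 of their counts, and with Dox 3.19% ± 1.46 (SD, n = 3 each). Il2rg took 37.7% ± 2.78 and 41.7% ± 13.2 (SD, n = 3 each), and its groups overlapped in this measure. The share of Il4ra went from 1.87% ± 0.757 to 11.6% ± 2.32 and that of Il21r from 7.84% ± 0.744 to 16.8% ± 3.01 (SD, n = 3 each), with no overlap. The shares of Il7r (15.9% ± 2.72 and 17.9% ± 8.26) and of Il2rb (7.55% ± 1.4 and 8.76% ± 3.86) overlapped between groups (SD, n = 3 each). So Il21r, whose level did not pass the test, took a larger part of a smaller sum. These shares are one sum split in 6, so a lower share of one gene raises the others.

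Jak3 (Entrez gene 16453, chr8:71676383-71690577), the kinase bound to the gamma chain, had the lowest mean level of the 10 genes in both groups, although in Dox replicate 11 Il2ra was lower still. It had 9, 6 and 14 counts without Dox and 9, 31 and 12 with Dox, or 1.216 to 2.373 and 1.225 to 3.191 CPM. The groups overlapped, and the log2 fold change of 0.28 had a 95% interval from -1.67 to 2.24 (adjusted p = 0.813 by edgeR), so a change of several-fold either way could not be detected at this depth. The level itself is uncertain. The neighbouring gene Insl3, on the same strand, covers 404 of the last 500 exonic bases of Jak3 (GENCODE vM21), which is where 3′ libraries place their reads, and Insl3 had 0 counts in every library. How reads in a stretch shared by 2 genes were counted is not given in the sources used here. The sign of the fold change turned without Dox replicate 11 (-0.25).

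Stat5a and Stat5b encode near-identical transcription factors that carry most of the signal from interleukins 2, 7 and 15. Stat5a (Entrez gene 20850, chr11:100859351-100885169) was 28.95, 31.82 and 36.79 CPM without Dox and 24.09, 10.29 and 9.488 CPM with Dox. Dox replicate 10 was nearer to the libraries without Dox than to the other Dox libraries, and the groups did not overlap. By edgeR, Stat5a fell by 1.16 ± 0.38 (SE) on the log2 scale (adjusted p = 0.0296). The call was lost without each library in turn except Dox replicate 10, with adjusted p of 0.0655, 0.0705 and 0.0937 without no Dox replicates 4, 5 and 6, and of 0.0752 and 0.0513 without Dox replicates 11 and 12. Over all its alternatives the adjusted p ran from 0.000838 to 0.102.

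Stat5b (Entrez gene 20851, chr11:100780731-100859004) was the more abundant of the pair, at 53.87, 60.8 and 69.17 CPM without Dox and 48.45, 50.02 and 16.6 CPM with Dox. The groups did not overlap, but Dox replicates 10 and 11 were close to the libraries without Dox and replicate 12 was 3.01 times below the highest Dox library. By edgeR the log2 fold change of Stat5b was -0.67 ± 0.36 (SE), and it did not pass the threshold (adjusted p = 0.156). Without Dox replicate 12 the log2 fold change was -0.33 (adjusted p = 0.158). Without Dox, Stat5a made up 35%, 34.4% and 34.7% of the Stat5a and Stat5b counts. With Dox it made up 33.2%, 17.1% and 36.4%, so that Dox replicate 11 stood below the other 5 libraries. The 2 genes share 95 words of 30 bases in the last 500 bases of their transcripts, of 2054 in Stat5a and 942 in Stat5b, so some reads may fit both. Stat5a also ends against Stat3 on the other strand, with 72 shared exonic bases in GENCODE vM21 and none in RefSeq, where Stat3 ends at 100886806.

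Cish (Entrez gene 12700, chr9:107296659-107302784) encodes CIS, which STAT5 induces and which competes with it at the receptor. It was 10.3, 7.904 and 12.54 CPM without Dox and 7.621, 15.54 and 13.97 CPM with Dox. Its counts were 39 to 74 and 56 to 151. The groups overlapped, with the lowest of the 6 libraries in the Dox group. The log2 fold change was 0.27 with a 95% interval from -0.61 to 1.15 (adjusted p = 0.603 by edgeR), and over the alternatives it stayed between 0.05 and 0.57. Cish had 12.4, 8.53 and 11.8 counts per 100 counts of Stat5a and Stat5b together without Dox and 10.5, 25.8 and 53.5 with Dox, and these overlapped too. The mean level of Cish was 10.25 CPM without and 12.38 CPM with Dox in groups whose Il2ra level differed 21.1-fold, and its interval allows a rise of up to 1.15 or a fall of up to 0.61 on the log2 scale.

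**Figure D4:**
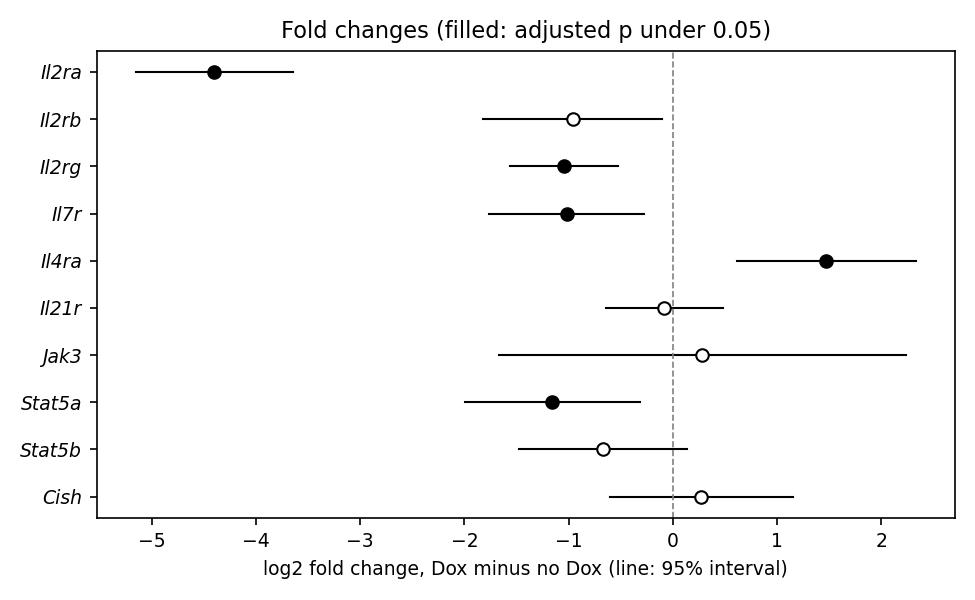
Points give the log2 fold change (Dox minus no Dox) of each gene and lines its 95% interval from the edgeR fit of 3 libraries against 3, filled where the adjusted p was under 0.05. Il2ra lies alone at -4.40, Il2rg, Il7r and Stat5a lie between -1.16 and -1.02, and Il4ra lies at 1.47.

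The order of levels changed mainly through Il2ra and Il4ra. Without Dox the mean levels ran from Il2rg (148.5 ± 9.6 CPM, SD, n = 3) and Il2ra (114.7 ± 5.98) through Il7r (62.93), Stat5b (61.28), Stat5a (32.52), Il21r (30.98), Il2rb (29.9), Cish (10.25) and Il4ra (7.273) to Jak3 (1.644). Il7r and Stat5b overlapped in range, as did Stat5a, Il21r and Il2rb, and Cish and Il4ra. Inside these sets Stat5a was above Il21r in each of the 3 libraries, and the other neighbours changed order between libraries. With Dox it ran from Il2rg (71.91 ± 21.3 CPM, SD, n = 3) through Stat5b (38.36), Il7r (31.11), Il21r (29.22), Il4ra (20.13), Il2rb (15.34), Stat5a (14.62), Cish (12.38) and Il2ra (5.488) to Jak3 (1.999). Here each gene overlapped the next in range, except Cish and Il2ra. Within each of the 3 Dox libraries, however, Il2rg was above Stat5b, Il21r above Il4ra and Cish above Il2ra, while the other 6 pairs of neighbours changed order between libraries. By group mean, Il2ra moved from the second place to the ninth, and Il4ra from the ninth to the fifth.

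The ligands of these receptors were scarce in both groups. Of 8 ligand genes, Il7, made mainly by stromal cells, was the only one with enough counts to test. It had 3, 12 and 1 counts without Dox and 57, 100 and 70 with Dox, and rose by 3.19 ± 0.86 (SE) in log2 units (edgeR, adjusted p = 0.0124), a call lost without no Dox replicate 4. Markers of stroma and endothelium, cells that include its main source, rose in 4 and fell in 2 of 9 genes (66.7% called, against 45.6% of all genes), and their summed level was 171.2 to 191.2 CPM without Dox and 394.1 to 472.6 CPM with Dox. The chemokine genes Ccl19 and Cxcl13 rose, from 1.409 to 129.4 CPM and from 2.5 to 115.4 CPM, and made up most of the rise of that sum. Vwf also rose, while Col1a1 and Pdgfrb fell, from 59.48 to 34.14 CPM and from 35.07 to 19.75 CPM. Pecam1, Cdh5 and Col3a1 did not pass the threshold. The 2 falls were 0 under scaling by library size alone and 1 without no Dox replicate 4, no Dox replicate 5 or Dox replicate 10. The part of these cells in the level of Il7 was not tested. Il2, Il4, Il9, Il13 and Il21 had at most 3 counts in any library, at or under the floor. Il15, which macrophages and stromal cells present, had 9, 6 and 0 counts without Dox and 34, 73 and 4 with Dox, and the groups overlapped. Tslp had 3, 6 and 3 counts and 19, 0 and 11.

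Receptor chains that stand beside the 10 genes did not pass the test. Il9r and Il15ra are the specific chains for interleukins 9 and 15, Crlf2 is the receptor for Tslp that pairs with Il7r, and Il13ra1 pairs with Il4ra. By edgeR 0 of these 4 passed, against 45.6% of all genes, with 1 at an unadjusted p under 0.05, and DESeq2 and limma-voom also called 0. Il9r was 17.18 and 20.22 CPM, Crlf2 22.6 and 17.4 CPM, Il15ra 3.236 and 4.265 CPM, and Il13ra1 1.212 and 4.168 CPM (means without and with Dox). Il13ra2 had too few counts to test.

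Of the 8 other JAK and STAT genes, all tested, 6 rose and none fell (75% called, against 45.6% of all genes), with a median log2 fold change of 1.24. Jak1, the partner kinase on the other receptor chains, was 176.9 CPM without and 340 CPM with Dox (a log2 difference of 0.94 with SE 0.15, edgeR adjusted p = 0.000617), and was named for that role. In each library Jak1 had far more counts than Jak3, which had 0.665 to 1.38 counts per 100 Jak1 counts without Dox and 0.367 to 1.02 with Dox, within the uncertainty of Jak3 given above. Stat4, which interleukin 12 activates, rose from 1.497 to 9.129 CPM. Stat2, of the type I interferon response, rose from 9.335 to 39.59 CPM. Stat6, which Il4ra activates, rose from 8.549 to 25.34 CPM with Il4ra; it shares 40 bases at its end with Nab2 on the other strand. Jak2 and Tyk2 did not pass the threshold.

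**Figure D5:**
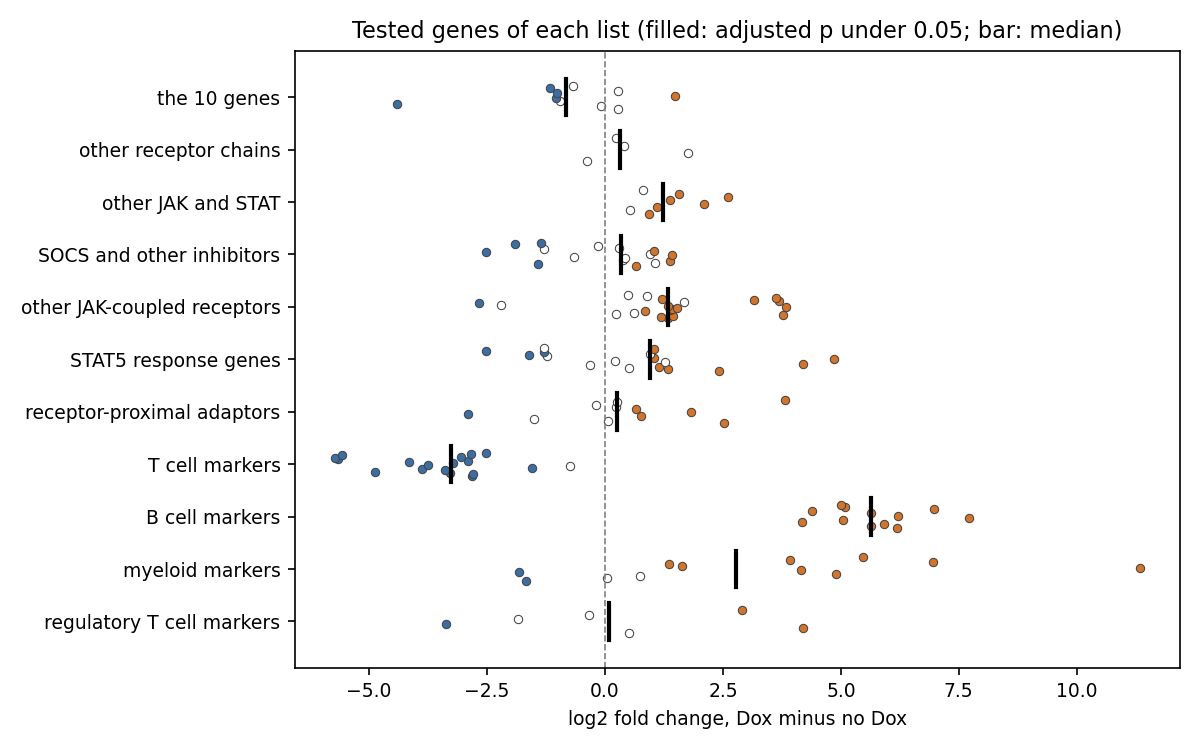
Each point is the log2 fold change (Dox minus no Dox) of 1 tested gene, by list, filled orange where it rose and blue where it fell at an adjusted p under 0.05, with a bar at the list's median. The 10 genes have a median of -0.82, other JAK and STAT genes 1.24, T cell markers -3.26 and B cell markers 5.64; the point of Ly6g, at 0 counts without Dox, is a fitted value.

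Among inhibitors of cytokine signalling, 4 of 16 rose and 4 fell (50% called, against 45.6% of all genes), with a median log2 fold change of 0.34. This split moved with the settings: 7 rose and 3 fell under scaling by library size alone, and 2 rose and 6 fell without a filter on low counts. Socs1, a feedback inhibitor that blocks JAK kinases, fell from 31.96 ± 7.47 to 5.588 ± 5.24 CPM (SD, n = 3 each; log2 fold change -2.52, adjusted p = 0.00737 by edgeR). Socs6 fell from 23.52 to 6.3 CPM and Pias2 from 24.61 to 9.25 CPM. Ptpn6, the phosphatase SHP-1 of blood cells, rose from 94.33 to 253.8 CPM, Pias4 from 4.85 to 12.63 CPM, and Socs2, another STAT5-induced feedback gene, from 17.7 to 36.38 CPM. Socs3, also a feedback inhibitor, was 11.79, 20.27 and 20.68 CPM without Dox and 10.21, 9.469 and 1.713 CPM with Dox. Its groups did not overlap, but it did not pass the threshold (edgeR, adjusted p = 0.0921). The count of those that rose was 1 without no Dox replicate 4 or without no Dox replicate 5 and 2 without Dox replicate 11, and the count in either direction was 4 without no Dox replicate 4 or without no Dox replicate 5.

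Genes that STAT5 is known to regulate went in both directions, with 7 of 17 higher and 3 lower (58.8% called, against 45.6% of all genes) and a median log2 fold change of 0.96; this list shares Socs1, Socs2 and Socs3 with the inhibitors and Foxp3 with the regulatory T cell markers. The kinase gene Pim1 fell from 268.5 to 88.37 CPM (a log2 difference of -1.60 with SE 0.23, edgeR adjusted p = 0.00035), and Pim3 fell from 31.67 to 12.89 CPM. Bcl2, which protects lymphocytes from death, rose from 25.77 to 136.8 CPM, and Bcl2l1 from 26.51 to 67.15 CPM. Lta, a cytokine gene of lymphocytes, had 1 to 3 counts without Dox and 66 to 167 with Dox, at least 23.2-fold higher against the floor of 3 counts in each library. These genes are also expressed by B cells and myeloid cells, whose marker levels are given above, and the part of those cells was not tested.

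Of 11 genes that act next to the receptors, 5 rose and 1 fell, or 54.5% against 45.6% of all genes. Lck, a T cell kinase that binds the beta chain, fell from 211.8 to 28.27 CPM and is also a T cell marker. Syk, a kinase of B and myeloid cells, rose from 11.27 to 159.6 CPM, the adaptor gene Gab2 from 5.705 to 33.22 CPM, and the lipid kinase gene Pik3cd from 40.51 to 144.3 CPM. The count that rose was 3 without no Dox replicate 4, no Dox replicate 5 or no Dox replicate 6. Among 21 other receptors that use JAK kinases, 14 rose and 1 fell (71.4% called, against 45.6% of all genes), with a median log2 fold change of 1.34. Il10ra rose from 2.309 to 33.54 CPM, Csf3r, the receptor of neutrophils for their growth factor, from 1.077 to 15.07 CPM, and Il5ra from 0.7186 to 9.57 CPM. Il12rb2 fell from 46.58 to 7.328 CPM, but all of its last 500 exonic bases are covered by Serbp1 on the other strand, and without a known strand setting its counts are uncertain. The count that fell was 2 without Dox replicate 10 or without Dox replicate 12.

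The genes with the most similar pattern over the 6 libraries were found by the Euclidean distance between log2 CPM values centred on each gene's mean. For Il2ra these were Uaca (distance 0.391), Cacng4 (0.672) and Ndufb2 (0.683), against a median distance of 5.653 to all tested genes. The mean of Cacng4 with Dox, 0.0893 CPM, is under the floor, so its distance is set by values that counting error covers. For Il7r they were Vkorc1 (0.212), Mccc2 (0.268) and Dnajc4 (0.372), against 2.44, and for Cish they were Sh2d3c (0.23), A630072M18Rik (0.23) and Parp10 (0.294), against 2.067. None of these 9 genes is among the 10 genes or in the other lists. All 6 libraries enter each distance, and the difference between the groups is part of it.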

How the data were processed

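RNA was measured in 6 mouse spleen libraries made with a 3′ mRNA kit that reads the end of each transcript, per the labels' protocols. The authors deposited 1 table of raw counts per Entrez gene ID, with no pooling and 0 columns left over. STAR, featureCounts and GRCm38 are named, without versions, in the submitters' processing notes; annotation, strand setting and treatment of shared reads are not given in the sources used here. Of 40808 gene IDs, 96.5% had a RefSeq symbol (GRCm38.p6). Groups came from library titles.

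After a low-count filter (filterByExpr, counts of 10 and totals of 15), libraries were scaled with TMM and genes compared with edgeR 4.0.16 (quasi-likelihood F-test, R 4.3.3, all 6 libraries, no covariate), with Benjamini-Hochberg adjustment over 14110 genes and a threshold of 0.05. Standard errors and 95% intervals were computed from each fold change with its F statistic; intervals are not adjusted. The 10 genes and all 15 other lists were chosen with earlier results of these data known. Of each list up to 3 genes per direction were named, with the largest fold change among those past the threshold with a mean of at least 10 counts; others are named for their role. The lists for erythroid cells (4 of 8 higher, 1 lower, 62.5% called) and for mast cells and basophils (2 of 4 higher, 50% called) are not used further. Of all genes tested, 45.6% were called. The erythroid count in either direction was 3 without no Dox replicate 4, no Dox replicate 5, Dox replicate 10 or Dox replicate 11. The fit was tested on simulated data. Alternatives used DESeq2 1.42.0 and limma 3.58.1, other scalings and filters, and left-out libraries.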

Additional observations from a re-analysis of the deposited data

How the results depend on the processing

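No paired analysis was possible because, by title, replicates 4, 5 and 6 stand in one group and 10, 11 and 12 in the other. Il2ra, Il2rg and Cish kept their direction and their side of the threshold in all 14 alternatives that tested them. With library size only, which moved the median of all genes by 0.31, the log2 fold changes of Il7r (-0.72) and Stat5a (-0.84) no longer passed, Il21r turned to 0.22, and 3 of the 10 genes passed, 2 of them lower. Il21r also turned with upper-quartile factors (0.015) and with at least 10 counts in every library (0.036), settings that moved the genes tested by a median of 0.0974 and 0.118, about as much as Il21r itself. The stricter filter also left Jak3 untested and 19 cell markers called higher in place of 34. Il2rb passed without a low-count filter (-1.10), with DESeq2 (-1.005) and with limma-voom (-1.05), and Stat5b without a filter (-0.80) and with limma-voom (-0.80). At an adjusted p under 0.01, 2 genes passed, 2 lower and 0 higher. Leaving out each library in turn gave log2 fold changes of -1.28 to -0.66 for Il2rb, -1.47 to -0.77 for Il7r, 1.14 to 1.67 for Il4ra, -0.20 to 0.057 for Il21r, -0.25 to 0.55 for Jak3, -1.74 to -0.95 for Stat5a and -0.94 to -0.33 for Stat5b; 2 to 5 genes passed, 0 to 1 higher and 2 to 4 lower. The cause of these changes was not tested. Jak3 had 6 to 31 counts per library, which limits its precision.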
